A study of Mus musculus with 6 samples.

Results

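The genes described here are 10 transcripts of the HIF-1 oxygen-sensing pathway and of its targets outside glycolysis, measured in the mouse macrophage-like line RAW264.7 with and without itaconate. They were picked by symbol from the count table: Hif1a, Egln1, Egln3 and Vhl of the sensing machinery, and the target genes Vegfa, Hilpda, Ero1l, Ndrg1, Bnip3 and Adm. All 10 of 10 were found among the 35976 symbols of the table, and each had at least 1 count. Of these, 8 passed the filter on low counts that left 10636 genes for testing, while Egln3 and Adm did not. The study compared 3 libraries of untreated RAW264.7 cells (control) with 3 libraries of RAW264.7 cells given itaconate for 24 h. Itaconate, a mitochondrial metabolite with 2 carboxyl groups, is produced by macrophages on activation. The labels name no vehicle, dose or chemical form of the itaconate, and the single cell line carries no genotype or allele that differs between the groups. Nothing in them tells separate cultures from repeat libraries of 1 culture, so a p-value here reflects only the spread between libraries, which may be technical.

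HIF-1 is a transcription factor made of an oxygen-regulated alpha subunit, encoded by Hif1a, and a stable partner, encoded by Arnt. In oxygenated cells, prolyl hydroxylases of the Egln family mark the alpha subunit, and the von Hippel-Lindau protein, the product of Vhl, passes it to a ubiquitin ligase for destruction. The hydroxylases need iron and 2-oxoglutarate, and succinate, which builds up when succinate dehydrogenase is inhibited, competes with 2-oxoglutarate. Itaconate is a known inhibitor of succinate dehydrogenase. In macrophages, HIF-1 is also raised by inflammatory signals, and the alpha subunit is controlled mostly at the protein level, which RNA counts do not measure.

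RNA was counted by 3′ sequencing, in which reads fall near the poly(A) end. Library totals ran from 5202626 to 6098934 counts, so that a floor of 3 counts corresponds to between 0.487 and 0.565 CPM, counting error only. Levels are given in CPM, which here means counts per 1000000 of the library total after TMM correction for composition. All 10 macrophage markers examined had counts, with a summed level of 8426 to 9573 CPM in control and 6268 to 6612 CPM in itaconate libraries. Of these 10 markers, 6 were lower and 1, Cd68, was higher by the test used below, against 11.2% and 10.7% of all genes tested. The largest falls were in Csf1r (0.497-fold) and Cd14 (0.516-fold), and the part of these markers in the results was not tested. Of 19 markers of fibroblasts, T cells, B cells, epithelium, neutrophils and mast cells, 10 had no count in any library (among them Cd3e, Cd79a, Krt8, Krt18, Ly6g and Mpo). The sum of all 19 ran from 2.34 to 3.36 CPM in control and from 2.80 to 4.02 CPM in itaconate libraries.

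The promoters of the members are shown because HIF-1 binds the core letters ACGTG or GCGTG (the hypoxia response element), and they let a reader set the rising targets beside the genes that were not called. The sequences come from RefSeq on GRCm38.p6, run 5′ to 3′ on the gene's strand, and cover 250 bases before to 50 bases after an annotated start site. Promoters of 9 of the 10 members were matched, in 11 windows. No window was matched for Ndrg1. Capitals mark ACGTG or GCGTG on either strand, so that a match on the opposite strand reads CACGT or CACGC. Shown are Hilpda at the more downstream of its annotated starts, Ero1l and Bnip3, which rose, Vegfa at its upstream start, which rose, and Egln1, which was not called.
Hilpda (chr6:29272376-29272675, plus strand): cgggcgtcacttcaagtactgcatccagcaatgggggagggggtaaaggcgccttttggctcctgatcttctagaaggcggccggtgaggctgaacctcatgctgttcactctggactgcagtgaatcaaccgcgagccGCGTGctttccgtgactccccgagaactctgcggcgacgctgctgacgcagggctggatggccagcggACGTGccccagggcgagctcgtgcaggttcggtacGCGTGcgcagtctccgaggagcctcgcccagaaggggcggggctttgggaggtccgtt
Ero1l (chr14:45318523-45318822, minus strand): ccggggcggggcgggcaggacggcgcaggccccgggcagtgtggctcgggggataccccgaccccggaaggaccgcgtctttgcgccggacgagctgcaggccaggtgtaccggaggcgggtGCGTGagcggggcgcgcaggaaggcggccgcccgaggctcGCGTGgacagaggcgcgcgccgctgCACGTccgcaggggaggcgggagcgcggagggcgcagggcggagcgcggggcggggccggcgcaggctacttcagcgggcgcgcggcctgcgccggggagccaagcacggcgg
Bnip3 (chr7:138909457-138909756, minus strand): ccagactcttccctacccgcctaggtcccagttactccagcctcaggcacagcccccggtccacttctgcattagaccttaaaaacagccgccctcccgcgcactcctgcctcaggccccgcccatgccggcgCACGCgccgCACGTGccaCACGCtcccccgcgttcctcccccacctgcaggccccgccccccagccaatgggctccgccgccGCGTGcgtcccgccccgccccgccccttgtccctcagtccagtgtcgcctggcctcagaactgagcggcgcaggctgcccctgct
Vegfa (chr17:46032328-46032627, minus strand): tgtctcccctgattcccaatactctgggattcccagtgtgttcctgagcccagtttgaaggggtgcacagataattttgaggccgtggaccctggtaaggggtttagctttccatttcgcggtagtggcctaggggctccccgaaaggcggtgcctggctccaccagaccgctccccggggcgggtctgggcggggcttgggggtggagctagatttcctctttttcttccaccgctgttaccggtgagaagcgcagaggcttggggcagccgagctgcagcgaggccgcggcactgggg
Egln1 (chr8:124949205-124949504, minus strand): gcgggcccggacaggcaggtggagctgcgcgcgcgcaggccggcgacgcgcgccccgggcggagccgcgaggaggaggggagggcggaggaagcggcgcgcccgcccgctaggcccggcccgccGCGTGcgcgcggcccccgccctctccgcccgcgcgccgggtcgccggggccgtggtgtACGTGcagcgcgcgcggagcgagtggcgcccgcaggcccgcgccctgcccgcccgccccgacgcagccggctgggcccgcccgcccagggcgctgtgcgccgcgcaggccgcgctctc

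The letters ACGTG stood in a window of 7 of the 9 members (77.8%), against 21.8% of all 27025 genes with windows of the same length. Counted by window, ACGTG was found in 7 of the 11 member windows and in 19.6% of all 32851. With GCGTG allowed as well, 8 of 9 members had a match (88.9%, against 46.7% of all genes). In Bnip3 the ACGTG match begins 107 bases before the start and overlaps its own reverse match 108 bases before it, as part of the palindrome in the sequence above. Hilpda had ACGTG 43 bases before the start shown. The window of its more upstream start had no ACGTG, and GCGTG only at 27 bases after that start. Ero1l had the ACGTG match 63 bases before its start. Egln1, the gene of a hydroxylase that HIF-1 itself is known to induce, had ACGTG 68 bases before its start. Hif1a had 3 matches, which included an overlapping pair, Egln3 had 1, and Vegfa had 1 only in the window of its downstream start. The last 40 bases of 3 of the 11 windows (Hif1a, Egln3 and the downstream start of Vegfa) were, as a whole, in no GENCODE transcript of the gene. The annotated Egln3 gene reaches 54203860, so the last 40 bases of its window, which begins at 54203825, lie only partly outside the gene. In the remaining 8 windows, of 7 members, ACGTG stood in 4 members (Bnip3, Egln1, Ero1l and Hilpda), and the upstream Vegfa window shown above has neither motif. Adm had GCGTG alone, and the Vhl window had neither. The core of the antioxidant response element, TGACNNNGC, was found in 1 of 9 members, Adm, against 14% of all genes. The letters TGATGCAA, a form of the element bound by ATF4, were in 0 of 9 members, against 1.03% of all genes. The members were picked as genes of the HIF-1 pathway and its targets, so these shares describe the list and not the response to itaconate. The background of all genes was not matched to the members for base composition. No share over all genes was computed for windows found in a transcript. These matches are letters in a short window, and no binding was measured here.

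The comparison of itaconate with control asked which transcripts differed after exposure. Of the 8 members that passed the filter, 6 rose (Hif1a, Vegfa, Hilpda, Ero1l, Ndrg1 and Bnip3) at an adjusted p under 0.05 with edgeR's quasi-likelihood test. In the same test 10.7% of all genes were called higher and 11.2% lower. All 5 tested target genes rose, by 1.50-fold (Bnip3) to 2.15-fold (Hilpda), while in the sensing machinery Hif1a alone was called. With edgeR 0 members were called lower, 1 (Egln1) had an unadjusted p under 0.05 in that direction, and DESeq2 and limma-voom also called 0. The median log2 fold change of the 8 tested members was 0.64, against -0.01 over all genes tested. Because the members were chosen with earlier results of these data known, these comparisons describe the list and do not test it. In these 6 members every itaconate library lay above every control library, a pattern seen in 17.6% of all genes tested. A change in the number of cells expressing a gene and a change in RNA per cell cannot be told apart in such bulk samples.

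**Figure D1:**
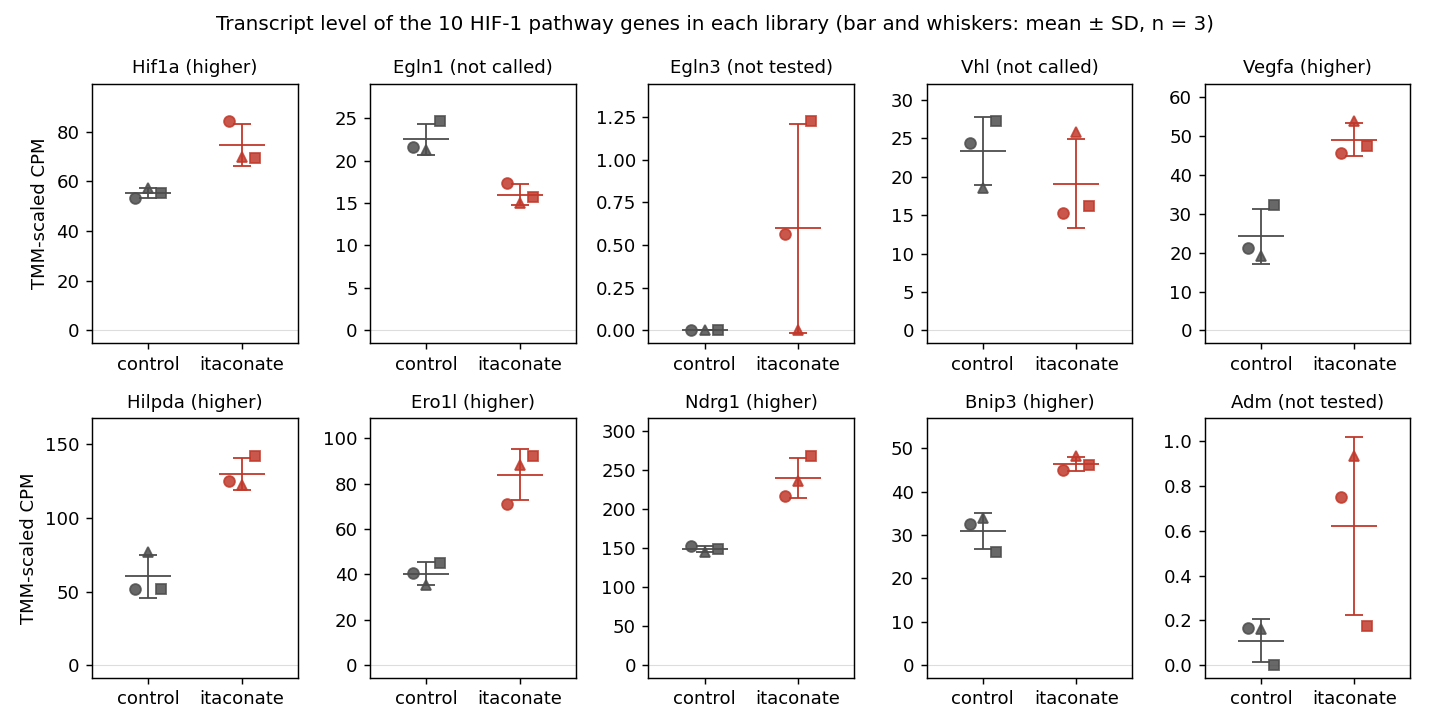
TMM-scaled CPM (linear axis, a separate scale for each gene) of the 10 members in control (grey) and itaconate (red) libraries. Circles, triangles and squares are replicates 1, 2 and 3, and the bar and whiskers are mean ± SD (n = 3). The groups are apart in Hif1a, Egln1, Vegfa, Hilpda, Ero1l, Ndrg1 and Bnip3, and Vhl overlaps. Egln3 and Adm did not pass the filter on low counts and were not tested in the reported fit.

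Hif1a lies on chromosome 12 from 73901375 to 73947530 of GRCm38 (plus strand, GENCODE annotation). Its level was 53.2, 57.2 and 55.2 CPM in the control libraries 1 to 3, and 84.2, 69.9 and 69.2 CPM in the itaconate libraries 1 to 3. The groups did not overlap, and itaconate replicate 1 stood above the other two. The rise, 1.35-fold, was 0.43 ± 0.14 in log2 units (SE), with a 95% interval from 0.15 to 0.71 and edgeR adjusted p = 0.0176. This call was lost without control replicate 1 (edgeR adjusted p = 0.0598) and without itaconate replicate 1 (log2 fold change 0.33, adjusted p = 0.133). Exons of Hif1a overlap Gm15283 on the opposite strand, outside the last 1000 bases of the gene. They also overlap Gm49321, a protein-coding gene on the same strand, again outside the last 1000 bases, and 0.0712% of the 50-base stretches at Hif1a transcript ends occur in it. Reads in the shared exons cannot be assigned to either gene by strand, and Gm49321 was not among the symbols counted. Gm15283, an antisense transcript chosen after its values were seen, had 14, 21 and 12 counts in control and 2, 0 and 4 counts in itaconate libraries (log2 fold change -2.80 ± 0.93, edgeR adjusted p = 0.0236). The strand setting of the counting is not given in the sources used here. Whether it separated reads of Hif1a and Gm15283 where they overlap is therefore not known.

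Egln1 encodes PHD2, the main oxygen sensor among the prolyl hydroxylases, and lies on chromosome 8 from 124908587 to 124949324 (minus strand). It stood at 21.6, 21.3 and 24.6 CPM in control and at 17.3, 14.9 and 15.7 CPM in itaconate libraries. Every itaconate library was below every control library, which 17.9% of all genes tested showed. The log2 fold change of -0.49 ± 0.23 did not pass the test (edgeR adjusted p = 0.129), and its interval ran from -0.95 to -0.03. Over the 12 alternative fits it stayed negative, between -0.55 and -0.42, and did not pass in any of them.

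Egln3 encodes PHD3, a hydroxylase strongly induced by hypoxia in many cells, and lies on chromosome 12 from 54178981 to 54203860 (minus strand). It had 0 counts in all 3 control libraries, and 3, 0 and 7 counts in itaconate libraries 1 to 3. Scaled to depth, the itaconate sum of 10 counts was 3.56 times a floor of 3 counts for the whole control group. Counting error in the itaconate sum was left out, so 3.56 is not a lower limit of the fold change. Itaconate replicate 2 had none, so the groups overlapped, and the gene was not tested in the reported fit. With no filter besides at least 1 count, its log2 fold change was 4.81 (edgeR adjusted p = 0.284).

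Vhl, which encodes the substrate receptor of the ligase, lies on chromosome 6 from 113623959 to 113631633 (plus strand). Its levels were 24.4, 18.5 and 27.2 CPM in control and 15.3, 25.8 and 16.3 CPM in itaconate libraries. The groups overlapped, since itaconate replicate 2 lay above control replicates 1 and 2. The log2 fold change was -0.29 ± 0.23 (edgeR adjusted p = 0.421), with an interval from -0.76 to 0.18, so that a fall of about the size seen in Egln1 and a small rise are both inside it. Leaving out 1 library moved the estimate between -0.57 (without itaconate replicate 2) and -0.15 (without itaconate replicate 1).

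Hilpda, a small lipid-droplet protein that inhibits the triglyceride lipase ATGL, had the largest fold change among the 8 tested members. It lies on chromosome 6 from 29272488 to 29275446 (plus strand). Control libraries held 51.7, 77.0 and 52.1 CPM, and itaconate libraries 125, 123 and 142 CPM. Control replicate 2 was the highest of its group and still well below every itaconate library. The rise was 2.15-fold, or 1.11 ± 0.13 in log2 units (SE), with an interval from 0.84 to 1.37 and edgeR adjusted p = 3.00e-09. By fold change Hilpda was number 223 of the 1133 genes called higher.

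Ero1l (Ero1a in current nomenclature) encodes an oxidase of the endoplasmic reticulum that reoxidises protein disulfide isomerase. It lies on chromosome 14 from 45283087 to 45318771 (minus strand). Its levels were 40.5, 35.4 and 45.2 CPM in control and 71.0, 88.4 and 92.2 CPM in itaconate libraries, with no overlap between the groups. The rise was 1.06 ± 0.15 in log2 units, or 2.08-fold (SE, edgeR adjusted p = 9.83e-08).

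Vegfa encodes the vascular endothelial growth factor and lies on chromosome 17 from 46016993 to 46032369 (minus strand). It measured 21.1, 19.2 and 32.3 CPM in control and 45.8, 53.8 and 47.6 CPM in itaconate libraries. Control replicate 3 was the highest control. The rise was 1.03 ± 0.19 in log2 units, or 2.04-fold (SE, edgeR adjusted p = 2.73e-05). Vegfa, Hilpda and Ero1l were the 3 members that rose by at least 1 on the log2 scale, and 2.41% of all genes tested were called higher with a change of that size.

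Ndrg1, a stress-responsive gene of the NDRG family and a widely used hypoxia marker, lies on chromosome 15 from 66929318 to 66969640 (minus strand). Control libraries were close to each other at 153, 145 and 149 CPM, and itaconate libraries held 216, 235 and 268 CPM. The spread was wider in the itaconate group, and the groups were apart. The rise was 0.69 ± 0.10 in log2 units, or 1.61-fold (SE, edgeR adjusted p = 1.48e-07). An antisense gene, Gm17035, overlaps the last 1000 bases of Ndrg1 and was not among the symbols counted. Since the strand setting is not given, the Ndrg1 count is uncertain.

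Bnip3 encodes a mitochondrial outer-membrane receptor for mitophagy and lies on chromosome 7 from 138890836 to 138909519 (minus strand). Its levels were 32.6, 33.9 and 26.1 CPM in control and 45.0, 48.2 and 46.2 CPM in itaconate libraries. The itaconate libraries were close together, and the lowest value was that of control replicate 3. The rise was 0.59 ± 0.17 in log2 units, or 1.50-fold (SE, edgeR adjusted p = 0.00891), and the call was lost without control replicate 3 (0.48, adjusted p = 0.0656). Of the stretches of 50 bases in the last 400 bases of Bnip3 transcripts, 20.4% also occur in Gm14506, Gm16439, Gm6532 or Gm9419, and antisense Gm45507 overlaps its last 1000 bases, so its count is uncertain. For the other members that share was at most 3.73% (Ero1l). The genes named here as sharing or overlapping with Bnip3 were not among the symbols counted. The close paralog Bnip3l, also a mitophagy receptor, was not called, at 0.12 ± 0.13 (edgeR adjusted p = 0.577, interval -0.14 to 0.37), and the difference between the paralogs was not tested.

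Adm encodes adrenomedullin, a vasodilator peptide, and lies on chromosome 7 from 110627661 to 110629820 (plus strand). It had 1, 1 and 0 counts in control and 4, 5 and 1 counts in itaconate libraries. The ratio of the group sums was 5.34 with a 95% counting interval from 1.14 to 50.1, and single libraries of both groups had 1 count. At this depth Adm was not tested in the reported fit. With no filter besides at least 1 count, its log2 fold change was 2.26 and it was not called (edgeR adjusted p = 0.595).

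Other genes of the sensing machinery were taken from a list of 18, of which 15 were tested. That list was also chosen with earlier results of these data known, so its counts are a description and not a test. With edgeR 3 of the 15 were called higher and 0 lower, against 10.7% and 11.2% of all genes tested. Another 2, Egln2 and Crebbp, had an unadjusted p under 0.05 in the lower direction, DESeq2 called 0 lower, and limma-voom called 1 lower. Cited2, whose protein competes with HIF-1 alpha for its coactivators, rose by 0.36 ± 0.08 in log2 units (SE; edgeR adjusted p = 0.000563), from 431.9 ± 27.4 to 554.8 ± 29.1 CPM (SD, n = 3). Tceb1, which encodes elongin C of the ligase that contains the Vhl protein, rose by 0.36 ± 0.12 (edgeR adjusted p = 0.0245). Os9, an endoplasmic reticulum lectin also described as a partner of the hydroxylases, rose by 0.31 ± 0.10 (edgeR adjusted p = 0.0138). Tceb1 did not pass with library totals in place of TMM (adjusted p = 0.07), nor when control replicate 1 (0.254) or 2 (0.0668) or itaconate replicate 1 (0.0539) or 2 (0.0608) was left out. Os9 did not pass when control replicate 2 (0.0752) or itaconate replicate 2 (0.0553) or 3 (0.0716) was left out.

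The subunits that pair with or resemble Hif1a were not called. Arnt had 0.33 ± 0.18 (edgeR adjusted p = 0.205, interval -0.03 to 0.70). Epas1, which encodes HIF-2 alpha, had 5, 1 and 12 counts in control and 12, 19 and 24 counts in itaconate libraries. Its estimate of 1.64 ± 0.76 was too wide to pass (edgeR adjusted p = 0.124, interval 0.10 to 3.18). It moved to 2.69 without control replicate 3 (adjusted p = 0.0671) and to 1.12 without control replicate 2 (0.407). In CPM the itaconate libraries of Epas1 lay between 2.26 and 4.20, just above the highest control at 2.24. Hif3a and Arnt2 had no count in any library. Egln2, the gene of the third hydroxylase PHD1, had -0.38 ± 0.16 (edgeR adjusted p = 0.0916). It passed with library totals in place of TMM (adjusted p = 0.0486) and without itaconate replicate 3 (0.0335). Hif1an, which encodes the asparaginyl hydroxylase FIH, had -0.35 ± 0.23 (edgeR adjusted p = 0.319). Without control replicate 2, which had 200 counts against 116 and 98 in the other controls, the Hif1an estimate was -0.03. None of Egln1, Egln2, Hif1an and Vhl was called.

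**Figure D2:**
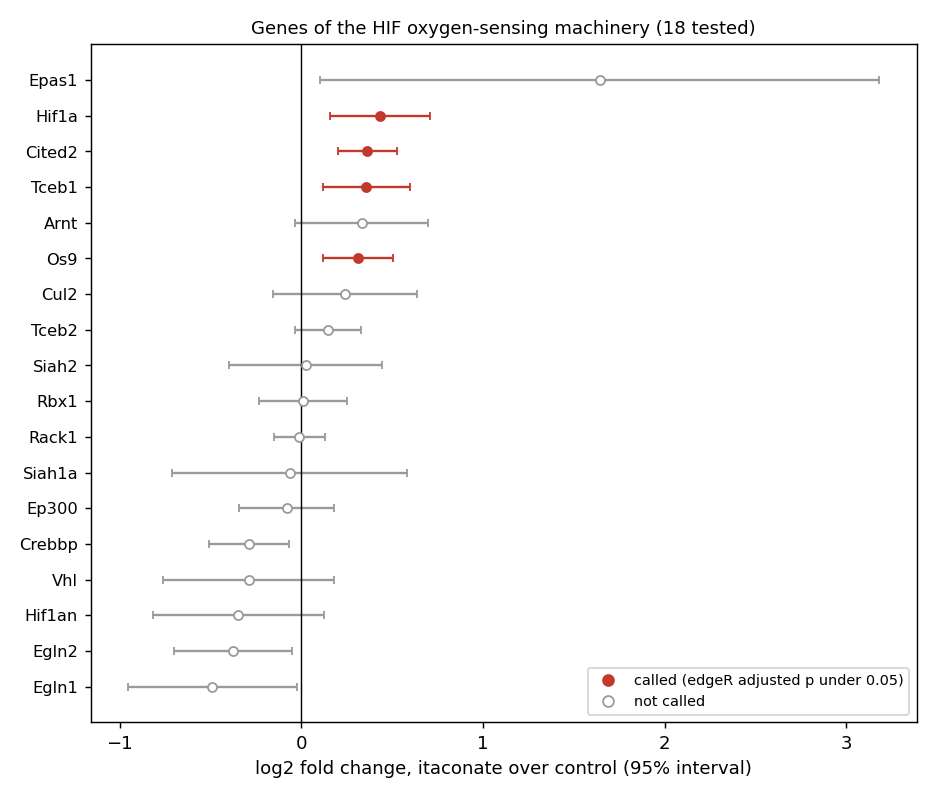
Log2 fold change of itaconate over control (horizontal axis, with 95% intervals from edgeR) for the 18 tested genes of the sensing machinery, the members Hif1a, Egln1 and Vhl included. Filled red points passed an adjusted p under 0.05 and open grey points did not. Hif1a, Cited2, Tceb1 and Os9 are called higher, and the hydroxylase genes lie at the lower end without a call.

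Further non-glycolytic hypoxia targets were taken from a list of 48, of which 45 had a count and 33 were tested. With edgeR 7 were higher and 1 lower, and 25 were not called, with a median log2 fold change of 0.16. Together with the members, 12 of 38 tested targets were higher and 1 lower. Over all genes tested, 10.7% were called higher and 11.2% lower. The pooled count includes the 5 tested member targets, all of which were called higher. Like the members, the further targets were chosen with earlier results of these data known, so these counts describe the list and do not test it.

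Cxcr4, the chemokine receptor for CXCL12, rose most, from 43, 29 and 19 counts to 221, 237 and 262 counts, or 8.44-fold (log2 fold change 3.08 ± 0.24, edgeR adjusted p = 9.47e-15). Gbe1, the glycogen branching enzyme, went from 11.9 ± 0.952 to 64.5 ± 9.81 CPM (SD, n = 3), or 5.42-fold. Hmox1, the haem oxygenase gene that NRF2 also drives, rose 3.35-fold from 91.7 ± 5.93 to 307.6 ± 57.0 CPM (SD, n = 3). Rab20, a small GTPase of phagosomes, and Angptl4, a lipoprotein lipase inhibitor, rose by 1.22 ± 0.36 and 1.20 ± 0.25 on the log2 scale. Ak4, a mitochondrial adenylate kinase, and Ier3, an immediate-early survival gene, rose by 0.97 ± 0.20 and 0.84 ± 0.12. In these 7 genes, picked here as called higher, the libraries of the groups did not overlap. Over the 33 tested genes of the list, every itaconate library lay above every control library in 12 and below in 4. Over all genes tested, 17.6% and 17.9% showed these patterns.

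The target called lower was Pdgfb, a growth factor gene, at -1.03 ± 0.30 (edgeR adjusted p = 0.00972). Its counts of 62, 184 and 136 in control and 43, 73 and 59 in itaconate overlapped between the groups. It did not pass when control replicate 2 (-0.73, adjusted p = 0.145) or 3 (0.0567) or itaconate replicate 1 (0.0594) was left out. Zfp395, a zinc finger gene, had 59, 33 and 17 counts in control and 13, 10 and 13 in itaconate, with every itaconate library below every control library. Its log2 fold change of -1.48 ± 0.56 missed the threshold (edgeR adjusted p = 0.0516). DESeq2 called it lower (adjusted p = 0.0421) and limma-voom did not (0.104). It also passed when library totals replaced TMM (0.0437) and when control replicate 3 was left out (0.0277). Without control replicate 1 it was -0.95 (0.404). Widely used hypoxia markers among the genes not called were the carbonic anhydrase gene Car9 (0.71 ± 0.38, edgeR adjusted p = 0.188), the collagen hydroxylase gene P4ha1 (0.42 ± 0.16, adjusted p = 0.0628), the kinase gene Pdk1 (-0.26 ± 0.17, adjusted p = 0.304) and the demethylase gene Kdm3a (-0.44 ± 0.28, adjusted p = 0.296). In Car9 and P4ha1 every itaconate library lay above every control library. In Kdm3a every itaconate library lay below, and in Pdk1 the groups overlapped. Car9, P4ha1, Pdk1, Kdm3a, Zfp395 and Bnip3l were chosen after their values were seen. Epo, Arg1 and Tgfa had no count in any library. Nos2 had 0, 4 and 5 counts in control and 1, 0 and 0 in itaconate.

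**Figure D3:**
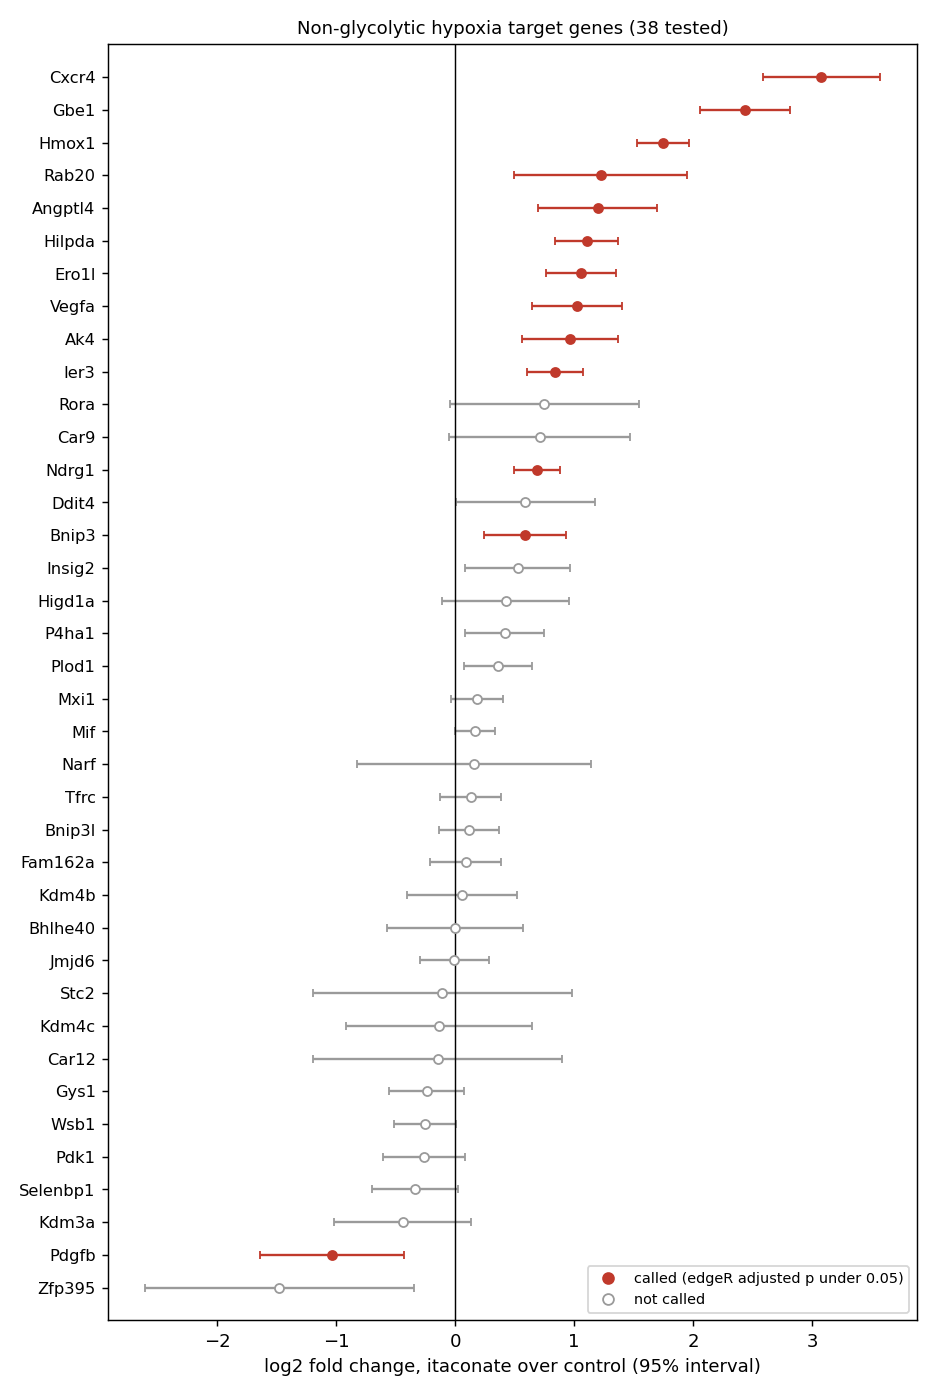
Log2 fold change of itaconate over control (horizontal axis, with 95% intervals from edgeR) for the 38 tested non-glycolytic hypoxia targets, the 5 tested members included. Filled red points passed an adjusted p under 0.05. The members Hilpda, Ero1l, Vegfa, Ndrg1 and Bnip3 lie between 0.59 and 1.11, below Cxcr4 at 3.08 and Gbe1 at 2.44, and Pdgfb is the called gene below 0.

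Receptors, relatives and partners of the member targets came from a list of 22, of which 15 were tested. This list too was chosen with earlier results of these data known, so its counts describe it and do not test it. With edgeR 7 of the 15 were called higher, against 10.7% of all genes tested, and 0 lower, against 11.2%, with 0 at an unadjusted p under 0.05 in the lower direction and 0 lower by DESeq2 and limma-voom. Among VEGF receptors, Nrp1, the coreceptor neuropilin 1, rose from 56.5 ± 2.99 to 191.3 ± 8.29 CPM (SD, n = 3), or 3.39-fold (edgeR adjusted p = 2.28e-18). Nrp2 rose by 0.23 ± 0.08 in log2 units (edgeR adjusted p = 0.0393). It did not pass with library totals in place of TMM (adjusted p = 0.116), with no filter (0.0598), or when control replicate 1 (0.145) or 3 (0.133) or itaconate replicate 1 (0.0876) or 2 (0.164) was left out. The tyrosine kinase receptors were low: Flt1 had 15, 17 and 15 counts in control and 0, 15 and 9 in itaconate, and Kdr had 0, 3 and 1 and then 15, 4 and 0. The related ligand gene Vegfb rose by 0.37 ± 0.12 in log2 units (edgeR adjusted p = 0.0198). It did not pass when control replicate 3 (0.161) or itaconate replicate 1 (0.0604) or 2 (0.0821) was left out.

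Of the adrenomedullin receptor, Calcrl was measured at 57.5 ± 7.47 and 69.9 ± 0.631 CPM (SD, n = 3) and not called (0.28 ± 0.14, edgeR adjusted p = 0.145). Its accessory genes Ramp1 and Ramp2 had at most 4 counts in any library, and Ramp3 had none. Pnpla2, which encodes ATGL, the lipase that the Hilpda protein inhibits, rose 1.98-fold from 147.2 ± 9.30 to 291.4 ± 6.53 CPM (SD, n = 3). Plin2, a coat protein of lipid droplets, rose 1.85-fold (edgeR adjusted p = 2.61e-14). The disulfide isomerase gene P4hb, whose product the Ero1l protein oxidises, rose by 0.28 ± 0.08 in log2 units (edgeR adjusted p = 0.00868). Ndrg4 rose by 0.57 ± 0.16 (edgeR adjusted p = 0.00809), though not when control replicate 1 (0.0744) or itaconate replicate 1 (0.0786) was left out, while Ndrg2 and Ndrg3 had 0.17 ± 0.10 and 0.18 ± 0.16 and were not called. The mitophagy genes Fundc1, Phb2 and Pink1 were also not called, at 0.05, -0.08 and 0.27.

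Across the 12 alternative fits, Hilpda, Ero1l, Vegfa and Ndrg1 were called higher in every fit. Their log2 fold changes ran from 1.01 to 1.33 for Hilpda, from 0.97 to 1.16 for Ero1l, from 0.88 to 1.28 for Vegfa and from 0.60 to 0.76 for Ndrg1. Bnip3 was called in 11 of the 12 and Hif1a in 10.

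**Figure D4:**
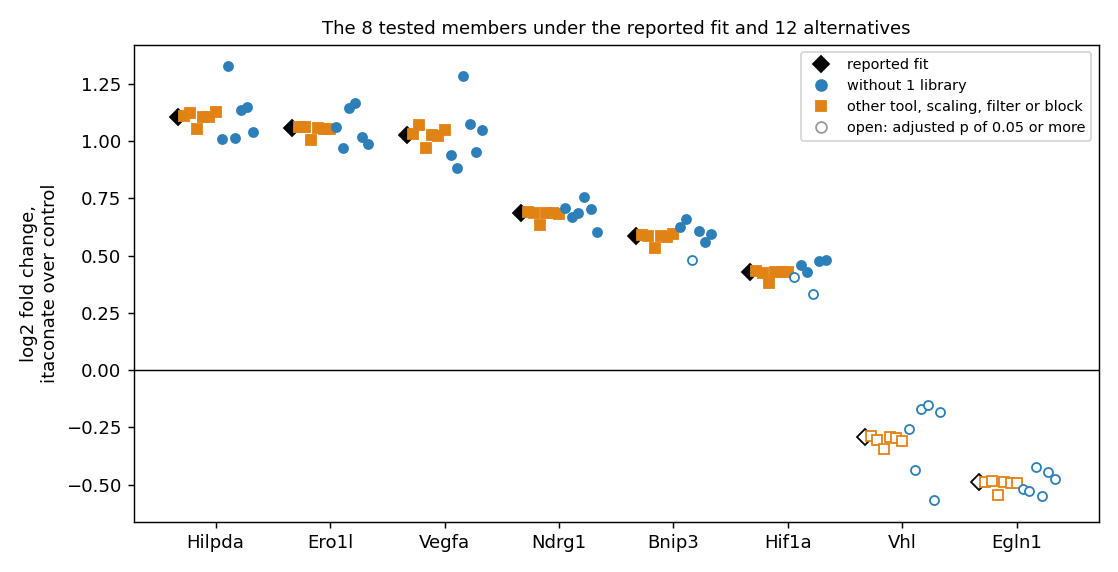
Log2 fold change of itaconate over control (vertical axis) for the 8 tested members under the reported fit (black diamond), other tools, scalings, filters or the replicate block (orange squares) and without 1 library at a time (blue circles). Open symbols have an adjusted p of 0.05 or more. The 4 members on the left are filled throughout, Bnip3 has 1 open symbol and Hif1a has 2, and Vhl and Egln1 are open throughout and below 0.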

How the data were processed

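Polyadenylated RNA of 6 RAW264.7 libraries, 3 per group, was sequenced with the Lexogen QuantSeq 3′ FWD kit, per the labels' protocols. The deposited values are raw counts per gene symbol, not normalized by the authors. STAR 2.7.5a, HTSeq 0.6.1 and edgeR, with the build mm10, appear in the submitters' processing notes, while the strand setting is not given in the sources used here, nor is the annotation. The table's header is tab-separated and the data lines space-separated, so the 6 names were taken in header order. All value columns were used.

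Genes were kept with filterByExpr (minimum count 10, minimum total 15), leaving 10636 genes with 99.74% of counts, scaled by TMM and tested by the quasi-likelihood F test of edgeR 4.0.16 in R 4.3.3 (robust, group as the only term, two-sided, Benjamini-Hochberg over all genes tested, threshold 0.05). The SE is the absolute log2 fold change over the square root of F, and intervals are 95%. Scripts were tested on simulated data. Alternatives were DESeq2 1.42.0, limma-voom (limma 3.58.1), library totals, no filter, at least 50 counts in at least 3 libraries, the replicate block and leaving out each library. Library totals as depth ran from 5202626 to 6098934 counts, and counting intervals cover counting error only.

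The members and gene lists were chosen with earlier results of these data known. Named genes are all members, called genes of the 3 pathway lists (for the further targets at most the 12 with the smallest p), Epas1, Arnt, Egln2 and Hif1an, and the receptors of VEGF and adrenomedullin with a count. Others, among them the uncalled relatives, were named after their values were seen. One item of the marker lists is not reported here. Coordinates come from the GENCODE annotation of GRCm38, the assembly that mm10 names, and promoters from RefSeq on GRCm38.p6.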

Additional observations from a re-analysis of the deposited data

How the results depend on the processing

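Among the 8 tested members, no log2 fold change turned its sign in any of 12 alternative fits, and the count called higher was 6 with DESeq2, limma-voom, library totals, no filter, the stricter filter and the replicate block. Without 1 library at a time it ran from 5 to 6. Over all genes, 1133 higher and 1191 lower became 935 and 1429 with library totals, and 882 to 1001 and 915 to 1101 without 1 library. In the machinery list, 0 lower became 1 with limma-voom, 2 with library totals, 1 with the stricter filter and 1 with the replicate block, and 0 to 1 without 1 library; Crebbp and Egln2 made up these calls. Its 3 higher became 1 to 3 without 1 library. Among the further targets, 1 lower became 2 with DESeq2 and 2 with library totals, and 0 to 1 without 1 library. Among the partners, 7 higher became 4 to 7 without 1 library. Leaving out a library leaves fewer samples and another number of genes tested; beyond that the cause was not tested.

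The groups share replicate numbers 1 to 3, but same-numbered libraries did not deviate together across genes (r = -0.00787, 0.014 and 0.0435), and not every library correlated best with its own number. With the replicate block 1087 genes were higher and 1160 lower, against 1133 and 1191 without it, and the 6 members called higher remained 6. Depth limits Egln3, Adm, Epas1, Flt1 and Kdr, which had under 30 counts in every library. No group had more than 3 libraries, so single outlying libraries were not tested for.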
